A study of Homo sapiens with 9 samples.

Results

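A set of 276 genes, of 26186 in the table, stood out in a single library, the third of 3 made with the hairpin shCHAF1B-#1. Members were chosen by their measured read counts: a gene was taken when that library held at least 8 of its reads and its level there was more than 8 times the highest level in any of the other 8 libraries. Levels are CPM, read counts relative to library size, scaled by the trimmed mean of M values (TMM) over all 9 libraries. The members therefore differ between that library and the rest by choice, and the values of that contrast are given as a description, with no test. The 276 genes are 1.05% of the table.

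The libraries come from MCF10A cells, a non-tumorigenic line of human mammary epithelial cells, infected with a lentivirus carrying a pLKO.1 hairpin vector. The 3 groups of 3 libraries differ in the hairpin: shGFP, a control against green fluorescent protein, and shCHAF1B-#1 and shCHAF1B-#2, each against CHAF1B, a subunit of the histone chaperone CAF-1. Puromycin at 2 µg/mL was given to all groups starting 24 hours after the virus, and polyadenylated RNA was collected 3 days after infection. Nothing in the labels states whether the 3 libraries of a group came from different cultures, and the p-values therefore cover no more than library-to-library spread, possibly technical.

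B lymphocytes are the cells that make antibodies. They carry the antibody on their surface as the B cell receptor, an immunoglobulin paired with the signalling chains CD79A and CD79B, and they show peptides to helper T cells on MHC class II molecules. Immunoglobulin genes are joined from variable and joining segments while the cell matures. A naive cell makes IgM and IgD. Switching to IgG, IgA or IgE takes place mainly after contact with antigen, and plasma cells, the last stage, secrete antibody.

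The promoters of 2 groups of members are shown because the letters of a known site recur in them: the Y box CTGATTGG, known from class II promoters, and the PU box GAGGAAGT, bound by the lymphoid and myeloid factors SPI1 and SPIB. RefSeq windows of GRCh38.p14, 300 bases each, were matched by symbol for 156 of the 276 members (228 windows). The 250 bases before the gene start are printed 5′ to 3′ on the gene's strand, with the motif letters, read on either strand, in capitals. The windows are chr6:32589849-32590098 (HLA-DRB1, minus strand), chr6:32666658-32666907 (HLA-DQB1, minus), chr1:110872898-110873147 (CD53, plus), chrX:101390797-101391046 (BTK, minus) and chr4:67558477-67558726 (STAP1, plus). The match begins 49 bases before the RefSeq start of HLA-DRB1, 91 before that of HLA-DQB1, 78 before that of CD53 and 11 before that of STAP1.
HLA-DRB1: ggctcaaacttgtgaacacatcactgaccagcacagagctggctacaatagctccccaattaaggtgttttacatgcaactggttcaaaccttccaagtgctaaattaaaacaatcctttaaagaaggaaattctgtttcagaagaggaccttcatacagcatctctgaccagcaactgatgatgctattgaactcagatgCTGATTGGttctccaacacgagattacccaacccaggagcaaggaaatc
HLA-DQB1: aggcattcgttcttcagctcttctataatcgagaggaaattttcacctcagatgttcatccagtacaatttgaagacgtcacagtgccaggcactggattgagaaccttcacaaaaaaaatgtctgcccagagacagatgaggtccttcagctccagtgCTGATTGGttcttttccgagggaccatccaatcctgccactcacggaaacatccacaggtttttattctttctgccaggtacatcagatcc
CD53: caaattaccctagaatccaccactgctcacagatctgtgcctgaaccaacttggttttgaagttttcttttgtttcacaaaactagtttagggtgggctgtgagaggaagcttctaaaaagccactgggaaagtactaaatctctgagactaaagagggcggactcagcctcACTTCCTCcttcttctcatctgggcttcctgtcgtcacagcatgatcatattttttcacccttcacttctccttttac
BTK: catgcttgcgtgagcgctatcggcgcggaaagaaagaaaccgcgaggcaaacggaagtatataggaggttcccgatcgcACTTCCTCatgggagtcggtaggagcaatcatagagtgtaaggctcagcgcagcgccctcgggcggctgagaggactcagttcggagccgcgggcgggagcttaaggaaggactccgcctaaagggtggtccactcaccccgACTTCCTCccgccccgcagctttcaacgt
STAP1: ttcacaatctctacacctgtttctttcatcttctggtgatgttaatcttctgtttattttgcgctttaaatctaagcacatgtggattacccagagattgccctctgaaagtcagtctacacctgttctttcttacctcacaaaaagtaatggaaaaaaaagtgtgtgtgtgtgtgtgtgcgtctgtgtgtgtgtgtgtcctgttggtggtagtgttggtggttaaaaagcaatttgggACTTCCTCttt

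The capitals in HLA-DRB1 and HLA-DQB1 mark the Y box, and those in CD53, BTK and STAP1 the PU box on the reverse strand, which BTK holds at 2 places. CTGATTGG was found in 9.21% of the members' windows and in 3.98% of all 34796 windows. Its 20 members were 5 of the 11 class II members with a window, 8 zinc finger genes and 7 others. GAGGAAGT was found in 8.33% of the members' windows, among them BTK, BANK1, FCRL1, STAP1, CD53, PIK3CG, RASGRP3 and 3 class II genes, and in 2.60% of all. The octamer ATGCAAAT, known from immunoglobulin promoters, was found in 3.51% against 1.76%. The core ATTGG, which lies within the Y box letters, showed no excess over the members as a whole: it was found in 34.2% of their windows and in 34.6% of all. Counted by gene, 10 of the 11 class II members with a window held it. Both strands were searched, and a match is a description of the sequence and not a site.

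CHAF1B, the targeted gene, was low in the library as in the others with its hairpin. It had 87 counts in shCHAF1B-#1 replicate 3, 63 and 121 in the other libraries of that hairpin, 64 to 99 with shCHAF1B-#2, and 914 to 1145 in shGFP. Library totals ran from 24339914 to 31819468 counts, and replicate 3 held 25775779. Of 16 mammary epithelial genes, 0 were members, and the median ratio of replicate 3 to the highest of the other 8 was 0.893. When the same rule was applied to each library in turn, 1 gene met it in shGFP replicate 1 and 0 in each of the other 7. The members held 39729 counts in replicate 3, or 0.154% of the library (95% exact binomial interval 0.153% to 0.156%, which covers counting error only), against 0.00161% to 0.00232% in the other 8. The 5 most abundant, IGHM, MS4A1, CD74, HLA-DRA and IGKC, made up 26.8% of the members' counts.

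Surface and receptor genes of the B cell were among the members. MS4A1 encodes CD20 (ENSG00000156738.17, chromosome 11, 60455752 to 60470760, plus strand, GRCh38). It had 2664 counts in shCHAF1B-#1 replicate 3 and 3 and 11 in replicates 1 and 2. With shCHAF1B-#2 it had 14, 9 and 7 counts, and with shGFP 13, 4 and 11. Replicate 3 stood alone, at 181 times the highest other level, and the other 8 libraries, those of its own hairpin included, had 14 counts or fewer. CD79A, a signalling chain of the receptor, had 761 counts in replicate 3 and 1 to 5 in the other 8 libraries, and its partner CD79B had 602 and 1 to 5. CD22, an inhibitory coreceptor, had 855 counts against 1 to 9.

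Of the 30 genes listed as B cell surface molecules, 27 had a row and 19 were members. The Fc receptor-like genes FCRL3, FCRL2, FCRL1 and FCRL5 had 612, 338, 123 and 90 counts, with at most 3 in any other library. CD72 had 183 counts against 5 to 8, TNFRSF13C, the receptor for the survival factor BAFF, 199 against 0 to 12, and CD180 114 against 1 to 3. CR2, the complement receptor CD21, had 9 counts in replicate 3 and 12 to 48 elsewhere. CD24 and FCMR lay within the range of the other libraries.

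**Figure D1:**
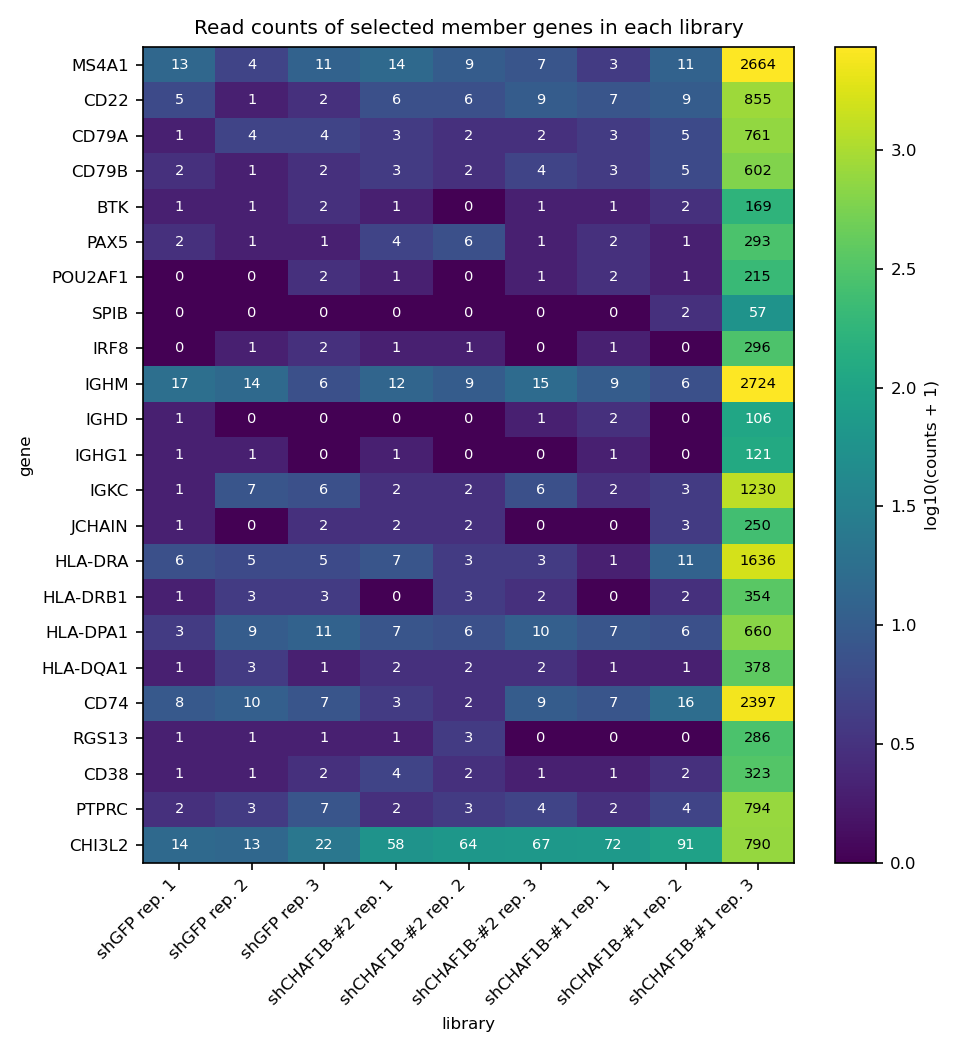
Read counts (printed in each cell, colour on a log10(counts + 1) scale) of selected members, in rows, in the 9 libraries, in columns. The last column, shCHAF1B-#1 replicate 3, is far above the others for every gene shown; CHI3L2 in the bottom row is also higher in the other knockdown libraries (58 to 91 counts) than in shGFP (13 to 22).

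Downstream of the receptor, 10 of 25 measured signalling genes were members. BTK, the Tec-family kinase, had 169 counts against 0 to 2 elsewhere. BLK, a Src-family kinase, had 102 against 2 to 13, and PIK3AP1, an adaptor for phosphoinositide 3-kinase, 253 against 2 to 11. RASGRP3, an exchange factor for Ras, had 363 against 9 to 18. A gene with more reads in the other libraries needed a larger excess to meet the rule. PLCG2, the phospholipase of the pathway, had 620 counts against 72 to 136, and the linker BLNK 152 against 38 to 76. SYK had 292 counts, above the 145 to 205 of the other knockdown libraries and below the 378 to 425 of shGFP. LYN, MALT1, BCL10 and PTPN6 were at 0.917 to 1.02 times the highest of the other 8.

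Of 21 measured transcription factors of the lineage, 9 were members. PAX5, which holds B cell identity, had 293 counts in replicate 3 and 1 to 6 in the other 8 libraries. IRF8 had 296 against 0 to 2, IKZF1 (Ikaros) 248 against 0 or 1, POU2AF1, the coactivator at octamer sites, 215 against 0 to 2, and IKZF3 (Aiolos) 181 against 0 to 2. SPI1 (PU.1) and SPIB had 79 and 57, each with at most 2 elsewhere. EBF1, another factor of B cell identity, was low at 19 counts against 0 to 3, and was not a member. POU2F2 and BACH2, present in MCF10A cells, reached 166 and 201 counts against 4 to 49 and 39 to 97.

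The immunoglobulin genes were of few kinds. IGHM, the constant region of IgM (ENSG00000211899.9, chromosome 14, 105851705 to 105856218, minus strand), had 2724 counts in replicate 3. In shCHAF1B-#1 replicates 1 and 2 it had 9 and 6, with shCHAF1B-#2 12, 9 and 15, and with shGFP 17, 14 and 6. Among the 3007 heavy-chain constant counts of replicate 3, IGHM held 90.6% (95% exact binomial interval 89.5% to 91.6%). IGHD held 3.53% (2.89% to 4.25%), with 106 counts, and IGHG1 4.02% (3.35% to 4.79%), with 121. IGHG2 had 44 counts, IGHG3 9 and IGHA1 3; IGHA1, with up to 2 counts in other libraries, was not a member. The IgG genes are near-identical copies, so their split is uncertain. Per length, IGHM stood at 57.4 CPM per kilobase of exon, IGHD at 2.45 and IGHG1 at 1.73.

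Most light chain counts were kappa. IGKC, the kappa constant region, had 1230 counts against 1 to 7 in the other libraries, at 92.7 CPM per kilobase, and 97.6% of the IGKC and IGLC2 counts together (95% exact binomial interval 96.6% to 98.4%); IGLC2 had 30. IGLL5, a gene that overlaps lambda joining and constant segments, had 207 counts against 0 to 2, so that its reads cannot be told apart from lambda ones. With IGLL5 included, IGKC held 1230 of 1467 light chain counts. Variable segments were few: 1 segment held 333 of the 334 kappa variable counts, over 2 segments with a row, and 1 held 163 of 196 heavy-chain variable counts over 5 (83.2%, interval 77.2% to 88.1%). The heavy-chain 5 include a pseudogene with 17 counts. Of 88 lambda variable counts over 3 segments, 75 were of 1 segment. That segment was not a member, as its level was not more than 8 times the highest other library. The 1 lambda variable member had 9 counts. Several joining segments of the kappa and heavy-chain loci were also members, with 8 to 17 counts each. JCHAIN, which joins IgM and IgA into polymers, had 250 counts against 0 to 3.

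The class II genes were high together. Of the 15 genes in the list, all with a row, 12 were members, and all 15 were more than 2 times the highest of the other 8 libraries; 1.68% of all genes were, with at least 8 counts. HLA-DRA, the alpha chain of HLA-DR, had 1636 counts in replicate 3, 1 and 11 in replicates 1 and 2, 7, 3 and 3 with shCHAF1B-#2, and 6, 5 and 5 with shGFP. CD74, the invariant chain that guards the peptide groove (ENSG00000019582.14, chromosome 5, 150401637 to 150412929, minus strand), had 2397 counts there and 2 to 16 elsewhere. The beta chain HLA-DRB1 had 354 counts, HLA-DPA1 and HLA-DPB1 660 and 342, and HLA-DQA1 and HLA-DQB1 378 and 353, with at most 11 in any other library. HLA-DRB5, HLA-DQA2 and HLA-DQB2, with 191, 129 and 27 counts, resemble other genes of the family closely, and their values are uncertain.

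The genes that load the peptide were present too. HLA-DMB had 257 counts against 0 to 2 elsewhere, and HLA-DOA, part of the modulator HLA-DO that is typical of B cells, 148 against 0 to 3. HLA-DMA, with 201 counts, fell just short of the rule at 7.90 times the highest other library, and HLA-DOB had 130 against 24 to 38. CIITA, the master regulator of class II genes, had 151 counts against 37 to 59, a ratio of 2.59. Per length, HLA-DRA was at 50.4 CPM per kilobase, CD74 at 29.7 and HLA-DRB1 at 11.3, while the other class II members were between 0.525 and 5.97.

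**Figure D2:**
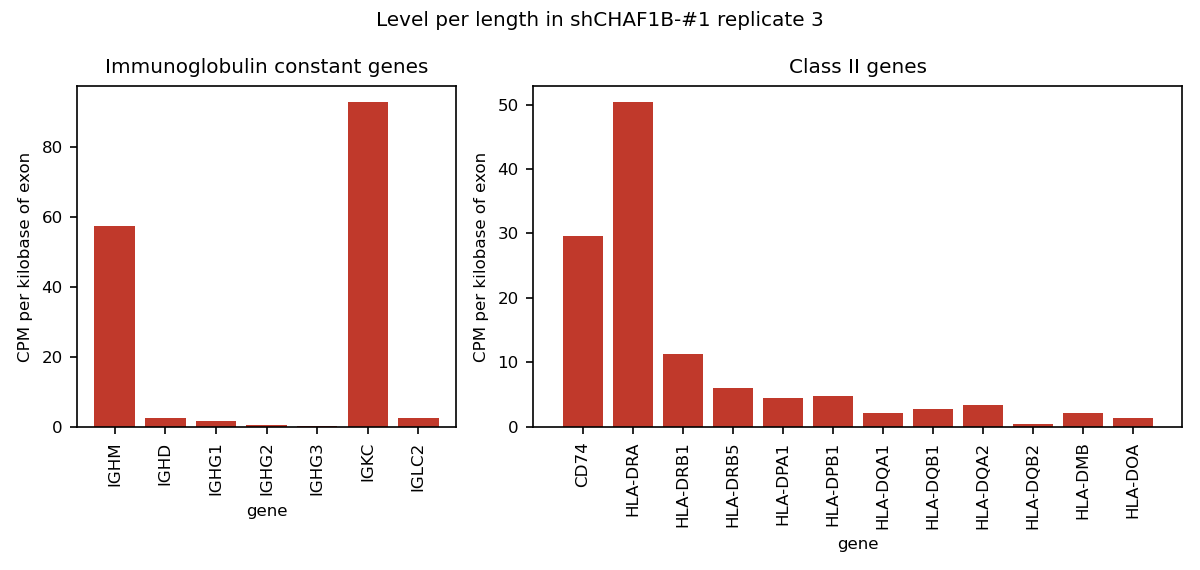
CPM per kilobase of exon (bars, from 0) in shCHAF1B-#1 replicate 3, a single library without error bars, for the immunoglobulin constant genes (left) and class II genes (right) among the members; the vertical scales differ. IGKC (92.7) and IGHM (57.4) lead on the left, and HLA-DRA (50.4) and CD74 (29.7) on the right.

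The stage lists gave a mixed picture. Of 8 measured progenitor genes, 1 was a member: VPREB3, with 53 counts against 0 to 3, named for the pre-B cell and also known from germinal centre cells. RAG1 had 12 counts, within the 8 to 27 of the other libraries, and CD34 had 3. RAG2, DNTT, VPREB1 and IGLL1 were sought but were not among the 8 measured. Of 13 measured genes of transitional and naive cells, 3 were members: IGHD, CD72 and TCL1A (61 counts against 0 or 1). CXCR5, CCR7 and KLF2 had at most 7 counts each.

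Of 15 genes of germinal centre cells, 2 were members, but 7 were more than 2 times the highest of the other 8 and 11 were highest in replicate 3, where 12.2% of all genes were highest. RGS13, a regulator of G protein signalling typical of the germinal centre, had 286 counts against 0 to 3. SERPINA9 and MEF2B had 9 each against 0 to 2, S1PR2 169 against 30 to 72, GCSAM 232 against 77 to 116, and ELL3 21 against 3 to 9. BCL6, the master repressor of the stage, had 802 counts against 441 to 742, a ratio of 1.21. MME, which encodes CD10, had 161 counts; it was at 2.96 times the mean of the other 2 libraries of the hairpin and 1.12 times the highest library. LRMP, a germinal centre gene outside the list, was among the most abundant members, at 848 counts against 4 to 11.

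Of 10 measured memory genes, 4 were members, namely CD27 (47 counts against 0 to 3), FCRL5, CD80 (19 against 0 or 1) and TNFRSF13B, with 16 counts and 0 elsewhere. Of 15 measured plasma cell genes, 7 were members: CD38 (323 against 1 to 4), JCHAIN, POU2AF1, FCRL5, TNFRSF17 (42 against 0 or 1), MZB1 (40 against 0 to 5) and IRF4 (31 against 0 to 3). The other 8 were at 0.835 to 0.983 times the highest other library, among them the secretory regulators PRDM1, with 184 counts against 117 to 240, and XBP1, with 2119 against 2003 to 2611. At such counts in the other libraries, a small added amount of PRDM1 or XBP1 would not show. SDC1, the plasma cell marker CD138, is also an epithelial gene and had 16067 counts against 10189 to 21478. Of 20 measured activation genes, 4 were members, CXCR4, CD80, LTA and MIR155HG, with 247, 19, 17 and 8 counts.

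**Figure D3:**
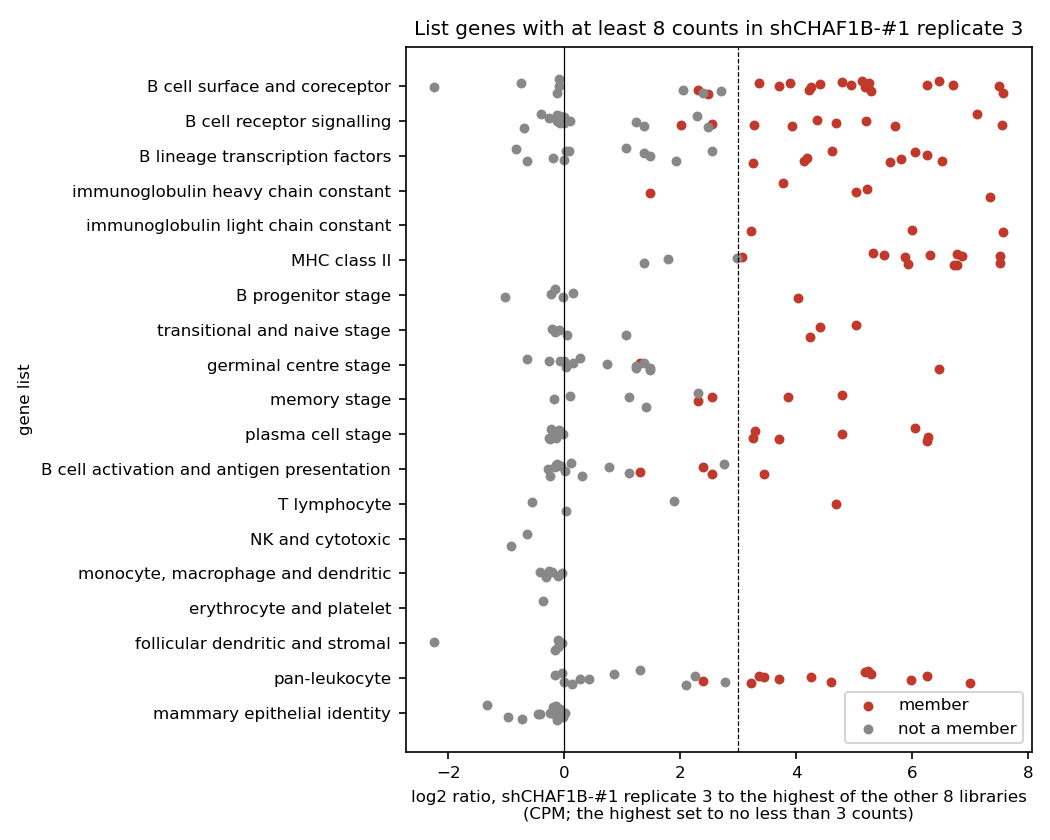
For each gene list (rows), the log2 ratio of CPM in shCHAF1B-#1 replicate 3 to the highest of the other 8 libraries, where the highest was set to no less than 3 counts, for genes (points) with at least 8 counts in that library; members are red, other genes grey, and the dashed line marks 8 times. Members cluster in the B cell, immunoglobulin and class II rows, and the epithelial row lies near or below 0; members left of the dashed line have too few counts for a bound of 8 times.

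Few markers of other blood cells were members. Of 9 measured T lymphocyte genes, 1 was a member: LCK, a kinase of T cells also found in some B cells, with 83 counts against 0 to 2. TRAC had 16 counts against 0 to 4, and CD4, CD28, CD247 and FOXP3 had 1 or 2 each. CD3D, CD3E, CD3G and CD2 were sought but were not among the 9 measured. None of the 3 measured NK and cytotoxic genes, 8 myeloid genes, 4 erythrocyte and platelet genes and 8 stromal genes was a member, and their median ratios to the highest other library were 0.641, 0.821, 0.567 and 0.818 (0.778 over all genes). CD14 had 566 counts, within the 342 to 782 of the other libraries. Of 24 leukocyte genes, 13 were members, including PTPRC (CD45) with 794 counts against 2 to 7, ITGAL with 388 against 0 to 6 and CD52 with 193 against 0 to 5. In bulk RNA, fewer cells of a type and less RNA per cell cannot be told apart.

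**Figure D4:**
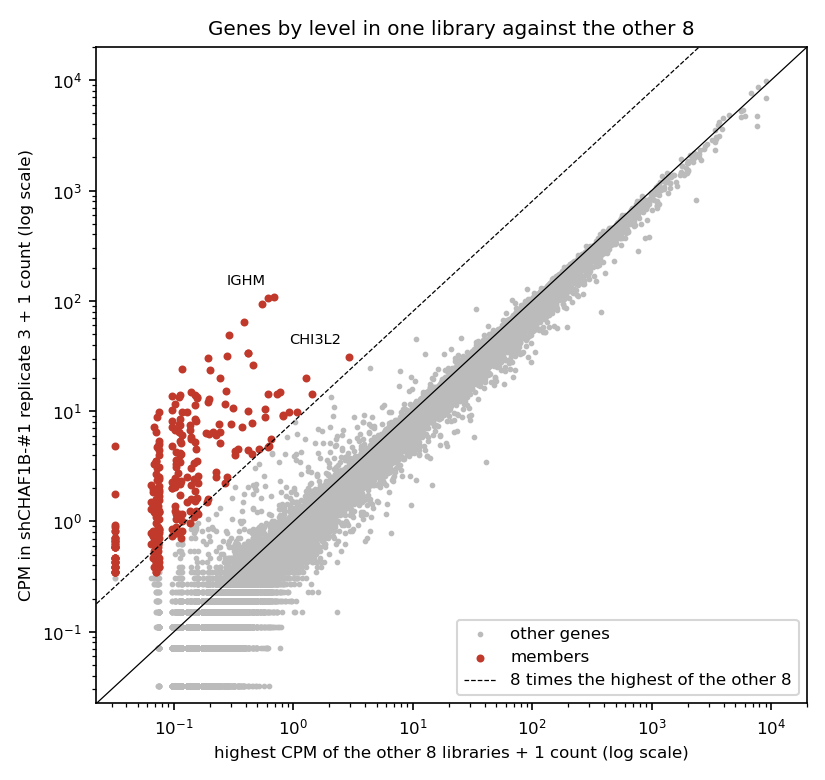
CPM in shCHAF1B-#1 replicate 3 (vertical) against the highest CPM of the other 8 libraries (horizontal), both with the equivalent of 1 count added and on log scales, for all 26186 genes; the 276 members are red, the solid line marks equality and the dashed line 8 times. Most of the grey genes follow the solid line, while IGHM lies far above it, at 164 times the highest other library before the count is added.

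The other libraries held a low level of the same genes. Summed over the 7 B cell markers MS4A1, CD79A, CD74, IGHM, CD79B, PAX5 and CD22, replicate 3 had 10296 counts and the others 33 to 53. As a share of the library total, the other 8 stood at 0.301% to 0.485% of replicate 3, with the shGFP libraries at both ends of that range. Among the 15 members with at least 500 counts, the mean level of the other 8 libraries was a median of 0.403% of that in replicate 3, and 12 of the 15 were under 1%. In single libraries, 134 to 165 members had 0 counts, and 38 members had 0 in all 8.

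Whether members differed with the hairpin in libraries that did not raise them was tested in the 8 remaining libraries, with all genes in 1 fit (edgeR quasi-likelihood test, Benjamini-Hochberg adjustment over 16544 genes). Only 19 of the 276 members had enough counts there to be tested. The rule had used the highest level of these 8 libraries as its bound, so the test is not independent of the choice of members. With shCHAF1B-#2 against shGFP, 7 of the 19 rose and 0 fell, beside 50.7% of all tested genes that changed, 26.4% up and 24.3% down. With replicates 1 and 2 of shCHAF1B-#1 against shGFP, 6 of the 19 rose and 0 fell, beside 48.4%, 25.7% up and 22.6% down. Both comparisons use the same shGFP libraries. The median log2 fold change of the 19 was 0.40 with shCHAF1B-#2 and 0.56 with shCHAF1B-#1, and over all genes -0.01 in each. Some members entered the test through the knockdown libraries. In shGFP, DOCK2 and CD53 had at most 5 counts, SEMA4A at most 8 and PPP1R16B at most 9, under the filter's minimum of 10. APOD had 9, 9 and 10 there, and BMF 12, 2 and 9. Of the 7 that rose with shCHAF1B-#2, only CHI3L2 had at least 10 in every shGFP library. In the knockdown libraries tested, DOCK2, CD53, SEMA4A, PPP1R16B, APOD and BMF reached 18, 17, 14, 20, 23 and 30. At such levels the filter favours genes that rise. The direction, the medians and the p-values of these low genes are therefore a description only. The count for shCHAF1B-#1 was 4 with DESeq2 and 2 without replicate 2 of that hairpin.

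CHI3L2, a chitinase-like secreted protein, had 72 and 91 counts in shCHAF1B-#1 replicates 1 and 2, 58, 64 and 67 with shCHAF1B-#2, and 14, 13 and 22 with shGFP. No knockdown library overlapped the controls. Its log2 fold change was 2.11 with shCHAF1B-#2 (SE 0.205, adjusted p = 1.17e-06) and 2.29 with shCHAF1B-#1 (SE 0.214, adjusted p = 8.98e-07). The other risers were at low levels and entered the test through the knockdown libraries. Their changes and p-values are therefore a description only. DOCK2, an exchange factor for Rac in leukocytes, went from 0.159 ± 0.0296 CPM in shGFP to 0.544 ± 0.0669 with shCHAF1B-#2 (SD, n = 3 each; edgeR adjusted p = 0.00119), and CD53, a leukocyte tetraspanin, from 0.120 ± 0.0502 to 0.394 ± 0.126 (edgeR adjusted p = 0.00727). PPP1R16B, BMF, a BH3-only cell death gene, and APOD, a lipid-binding protein, passed with both hairpins in edgeR, and SEMA4A with shCHAF1B-#2 alone. With shCHAF1B-#1 the log2 fold change of SEMA4A was 1.16 (edgeR adjusted p = 0.0997). With DESeq2, PPP1R16B and APOD lost the call for shCHAF1B-#1, and APOD and SEMA4A the call for shCHAF1B-#2. All 7 were lower in the 8 libraries tested than in replicate 3, which held 225 to 790 counts of each.

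The defining B cell genes that could be tested did not pass. MS4A1 had a log2 fold change of 0.27 with shCHAF1B-#2 (SE 0.468, edgeR adjusted p = 0.669) and -0.44 with shCHAF1B-#1 (SE 0.568, adjusted p = 0.560). IGHM had 0.13 (SE 0.405, adjusted p = 0.817) and -0.73 (SE 0.505, adjusted p = 0.257), and HLA-DPA1 0.17 (SE 0.449, adjusted p = 0.779) and -0.25 (SE 0.521, adjusted p = 0.724). At 3 to 17 counts a library, differences well above these errors could also be missed. SEMA4A, at 1.16 with shCHAF1B-#1 (SE 0.553), did not pass. Between the hairpins in the 8 libraries, a contrast added after the data had been seen, 0 of the 19 members passed with edgeR or DESeq2, and 0% of all genes with edgeR; at an unadjusted p under 0.05, edgeR gave 1 member, FERMT3, and DESeq2 0.

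**Figure D5:**
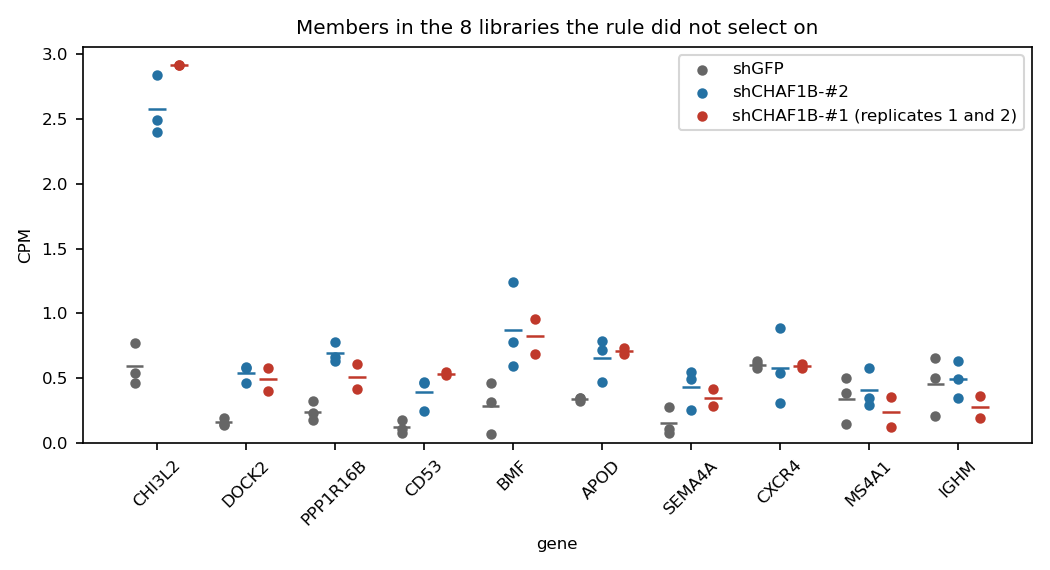
CPM on a linear axis from 0, in the 8 libraries other than shCHAF1B-#1 replicate 3, of the 7 members that rose with shCHAF1B-#2 against shGFP and of CXCR4, MS4A1 and IGHM, which did not pass; points are libraries and short lines group means. CHI3L2 lies at a mean of 0.592 CPM in shGFP and 2.58 and 2.91 CPM in the knockdown groups, while the groups of MS4A1 and IGHM overlap. The highest level of these 8 libraries was the bound of the rule.

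Keeping replicate 3 in the fit moved these counts in both comparisons. With all 9 libraries, 19 of the 19 tested members were called up with shCHAF1B-#1 against shGFP, beside 53.2% of all genes called and 27.9% called up; the rule used that contrast, so nothing follows from the count. With shCHAF1B-#2 against shGFP, a comparison that does not hold replicate 3 in either group, 0 of the 19 passed in the edgeR fit of 9 libraries, also at an unadjusted p under 0.05, against 7 in the fit of 8; 51.3% of all genes passed in the fit of 9. The log2 fold change of CHI3L2 was 2.11 in both fits, and its adjusted p went from 1.17e-06 to 0.126. Each gene has 1 estimate of the spread over all groups in such a fit.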

How the data were processed

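The labels describe RNA-seq of polyadenylated RNA, prepared with a TruSeq kit that does not mark strand; 69 members overlap another gene of the table, and reads of such pairs cannot be told apart. The authors deposited raw counts per gene. Per the submitters' processing notes, HTSeq 0.8.0, STAR 2.5.3a, DESeq2 1.18.1 and, as builds, mm10 and hg38 are named, without roles. The lowest gene total was 7, so rarer genes may have been left out before deposit. Symbols, positions and exon lengths came from GENCODE 29 (GRCh38), where 26149 identifiers matched and 37 did not; all 276 members matched.

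Members and lists were chosen with earlier results of these data known. Counts were scaled by TMM, filtered with filterByExpr (minimum count 10, total 15, proportion 0.7) and tested with edgeR 4.0.16 in R 4.3.3 at an adjusted p of 0.05, with the group as the only term. Libraries of 1 group always differed beyond counting error (chi-square per degree of freedom 3.79 to 13.5). The floor for figures was 3 counts. Steps were tested on simulated data. Named genes were list members, the most abundant members and those that passed; FERMT3, PIK3CG and most genes of the closing section were chosen after their values were seen. Alternatives were RLE scaling, DESeq2 1.42.0, no filter, a replicate block, other thresholds of the rule and leaving out each library. Variable segments are counted but not named, and some genes are not reported here.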

Additional observations from a re-analysis of the deposited data

How the results depend on the processing

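The number of members was 275 with RLE scaling and 274 with library totals alone, 221 at a minimum of 16 counts, 348 at more than 4 times and 203 at more than 16 times the highest other level; leaving out each of the other 8 libraries in turn gave 278 to 285. Members called in the fit of 8 libraries were all up in each setting, except for 1 called down without a filter with shCHAF1B-#2. For shCHAF1B-#2 against shGFP the main 7 became 5 with DESeq2, 10 without a filter, 7 with RLE and 5 to 7 when single libraries were left out; APOD and SEMA4A were the calls lost. For shCHAF1B-#1 against shGFP the main 6 became 4 with DESeq2, 5 without a filter, 6 with RLE and 2 to 7 when single libraries were left out, with 2 without shCHAF1B-#1 replicate 2, where PPP1R16B, BMF, DOCK2 and APOD lost their calls; a lone shCHAF1B-#1 library was then assumed to vary like the others. With the replicate number as a block the counts were 7 and 5 (PPP1R16B lost). Same-numbered libraries of different groups correlated at -0.192 to 0.171 in their deviations, and differently numbered ones at -0.333 to 0.328. The correlations thus showed no pairing by number, but with 3 libraries a group they cannot exclude a shared culture or batch. The calls for shCHAF1B-#1 against shGFP fell from 19 to 6 without shCHAF1B-#1 replicate 3. Depth limits the 81 members with under 20 counts, whose ratios rest on few reads.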

Other observations

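The lists held 77 members with 62.8% of the members' counts and left 199 members, and most of the genes named here were chosen after their values were seen. Some are known from lymphoid or myeloid signalling: DTX1, a regulator of Notch signalling known from B cells, had 504 counts in shCHAF1B-#1 replicate 3 and 1 to 5 elsewhere, and UCP2, a mitochondrial carrier, 350 against 0 to 2. Others are not usual B cell markers. NLRP7 had 181 counts against 0 or 1, CNR1, the cannabinoid receptor of the brain, 207 against 0 to 3, BMP7, a bone morphogenetic protein, 163 against 0 to 5, and NELL2, a secreted neural protein, 87 against 0 to 2. CDKN2A (chromosome 9, 21967753 to 21995301, minus strand), a tumour suppressor locus that MCF10A cells are known to have lost, had 15 counts in replicate 3, 1 in shCHAF1B-#2 replicate 1 and 0 in the other 7 libraries.

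By position, chromosomes 6 and 19 held 32 members each, 11.6% of the members, against 5.36% and 6.58% of genes with at least 8 counts in that library. On chromosome 6 the HLA genes account for 12 of the 32. On chromosome 19, 9 of the 13 zinc finger members were found, with 8 to 63 counts over all 13. By type, 210 members were protein-coding, 35 long noncoding RNAs, 19 immunoglobulin genes or segments and 12 pseudogenes. Just inside the threshold lay PARM1 (8.02 times the highest other library) and CYBA (8.10), and just outside it HLA-DMA (7.90) and CERS4 (7.75).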
